A study of Mus musculus with 3 samples.

Results

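The nuclear-encoded subunits of oxidative phosphorylation (OXPHOS) were taken by gene name from the annotated protein coding rows (Nduf subunits of the A, B, C, S and V series, Sdha to Sdhd, Uqcr genes, Cyc1, Cox4 to Cox8 genes and Atp5 genes). This gave 87 of the 37646 genes counted, with 38 in complex I, 4 in complex II, 9 in complex III, 19 in complex IV and 17 in complex V. Ndufa4 is listed with complex I by its name, although its protein is now placed in complex IV. The acyl carrier protein Ndufab1, a further complex I subunit, falls outside the name rule. Cox5b-ps and Ndufb1-ps carry pseudogene-style names but are typed as protein coding in the tables.

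Oxidative phosphorylation is carried out by 5 protein complexes of the inner mitochondrial membrane. Complexes I to IV pass electrons from NADH and succinate to oxygen, and complexes I, III and IV pump protons as they do so. Complex V, the ATP synthase, lets the protons flow back and makes ATP. Most subunits are encoded in the nucleus and a small set in the mitochondrial genome, except for complex II, which is wholly nuclear. Several subunits of complex IV and the c subunit of complex V exist as alternative genes, some of them used mainly in muscle, lung or testis.

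RNA was sequenced from lymphoma cells of pBIC2 mice on the C57BL/6 background, which model an aggressive B cell lymphoma, diffuse large B cell lymphoma, in its activated B cell form (ABC-DLBCL). All 3 libraries shared the genotype: floxed p53 (p53F/F), floxed Blimp1 (Blimp1F/F), a Cre-activated constitutively active IKK2 (IKK2ca stopF/stopF), Cre from the Cγ1 locus (Cg1Cre/+) and a human BCL2 transgene under the Eµ enhancer (Eµ-hBCL2 tg/+). The Cγ1 locus is transcribed in activated B cells, so recombination is limited to B cells that have passed that stage. B220+GFP+ cells were sorted from spleens, and the libraries are named here tumours 1, 2 and 3 in accession order. Their age and the number of animals behind each library are not given in the labels, so the spread between libraries may be technical in part. The sorted germinal centre B cells named as controls were not analysed here. With 1 group there was no contrast to test, and an exact two-sided sign-flip test over 3 tumours cannot go below p = 0.25, so the values below are levels and their spread between tumours.

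The libraries held 15576975, 16477997 and 17014022 gene counts, and 11273 genes passed the filter on low counts. The B cell markers Cd79a, Cd79b, Ms4a1, Cd22 and Pax5 had 10 or more CPM (counts scaled to a common library size, TMM-normalised) in each of the libraries. The summed level of 6 T cell markers was 4.90, 27.0 and 583 CPM in tumours 1, 2 and 3, and Cd3e was at 0 counts in tumour 1. The summed level of 6 macrophage markers was 11.0, 77.4 and 17.3 CPM. The median level of 8 proliferation genes was 113, 64.3 and 139 CPM. Whole-gene counts of the engineered loci (Trp53 34.1 ± 10.6, Prdm1 8.39 ± 1.73, Ikbkb 409 ± 65.2 and Bcl2 183 ± 71.5 CPM, SD, n = 3) check neither the deletions nor the transgene, since they sum over whole mouse genes.

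The subunits formed a broadly and strongly expressed set with a few silent isoforms. Of the 87 members, 73 (83.9%) reached 10 CPM in all 3 tumours, against 20.5% of all genes and 40.6% of protein coding genes. These were 35 of 38 in complex I, 4 of 4 in complex II, 9 of 9 in complex III, 11 of 19 in complex IV and 14 of 17 in complex V. The filter was passed by 79 members, and 7 of the 8 that failed it were complex IV genes. Together the members held 1.19%, 1.03% and 0.857% of gene counts in tumours 1, 2 and 3. The 95% Wilson intervals ran from 1.18 to 1.19%, from 1.03 to 1.04% and from 0.853 to 0.861%. Intervals cover counting error only.

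**Figure D1:**
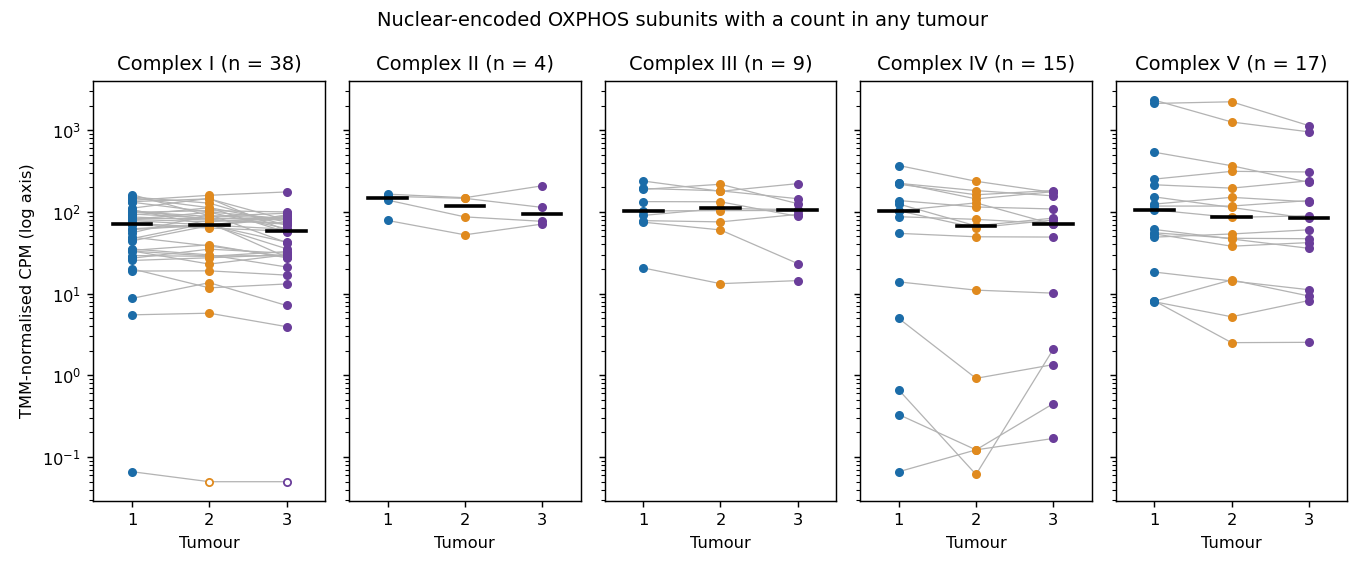
Level of each subunit with a count in any tumour (83 of 87) in TMM-normalised CPM on a log axis, by complex and tumour. Points are genes joined by grey lines, black bars are medians over the genes shown, and open points at the foot are genes with no count. Atp5a1 and Atp5b stand at 953 to 2330 CPM above every other subunit, and the points under 5 CPM in complex IV are Cox7a1, Cox6a2, Cox6b2 and Cox5b-ps.

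Levels between genes were compared per length, as CPM per kilobase of union exon length (RPKM), and again per length of the principal transcript, because the union of exons covers every annotated isoform (median 1.64 times the principal transcript over the 87 members). By union exon length, the median member was at 37.0 ± 4.31 RPKM in complex I, 52.0 ± 2.30 in complex II, 68.3 ± 9.14 in complex III, 26.4 ± 5.76 in complex IV and 38.5 ± 5.10 in complex V (SD, n = 3). The median over all genes that passed the filter was 7.94 ± 0.0974 RPKM. By principal transcript the medians were 61.7 ± 4.90, 71.0 ± 12.5, 121 ± 33.1, 59.1 ± 3.49 and 117 ± 27.0 RPKM in the same order of complexes, with 13.1 ± 0.204 RPKM over all genes that passed. Complex III had the highest median on both scales and complex IV the lowest. Complexes III and V, and likewise I and IV, lay within each other's SD per principal transcript. The order of the complexes depended on which members were counted. On the log2 RPKM scale by union exon length, complex IV without its isoforms of muscle, testis or lung type had a median of 6.16 in place of 4.70, above the 6.09 of complex III. Without members that share sequence with genes elsewhere (over 20% of 50-base stretches), complex V had a median of 6.39 in place of 5.26, above the 6.19 of complex III.

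Complex V held the most abundant members. Atp5a1 and Atp5b encode the alpha and beta subunits, which form the catalytic head (F1) of the ATP synthase. Atp5b (GRCm38 chr10:128083273-128090391) was at 2121, 2223 and 1136 CPM in tumours 1, 2 and 3. Atp5a1 (chromosome 18) was at 2330, 1259 and 953 CPM. Tumour 3 was the lowest for both, and tumours 1 and 2 were nearly level for Atp5b but not for Atp5a1. Atp5a1 ranked 24, 58 and 77 among all genes by CPM, and Atp5b ranked 31, 27 and 53. The ratio of Atp5a1 to Atp5b CPM was 1.10, 0.566 and 0.839, so it changed with the tumour. Its mean was 1.13 ± 0.360 per union exon length and 0.647 ± 0.206 per principal transcript (SD, n = 3), so which gene was higher depended on the length used.

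These genes carried most of the complex V counts. Atp5a1 and Atp5b together held 71.6%, 69.0% and 59.2% of complex V counts, with 95% Wilson intervals of 71.3 to 71.9%, 68.7 to 69.3% and 58.9 to 59.6%. They held 36.3%, 33.4% and 25.4% of the counts of all 87 members. Without them, the members' share of gene counts was 0.756%, 0.687% and 0.639%. The order of the tumours was the same with and without these genes, while the distance from tumour 1 to tumour 3 was smaller without them. All of these are shares of counts and were not computed per length. The principal transcripts of Atp5a1 and Atp5b (2471 and 1916 bases) were the longest in complex V.

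**Figure D2:**
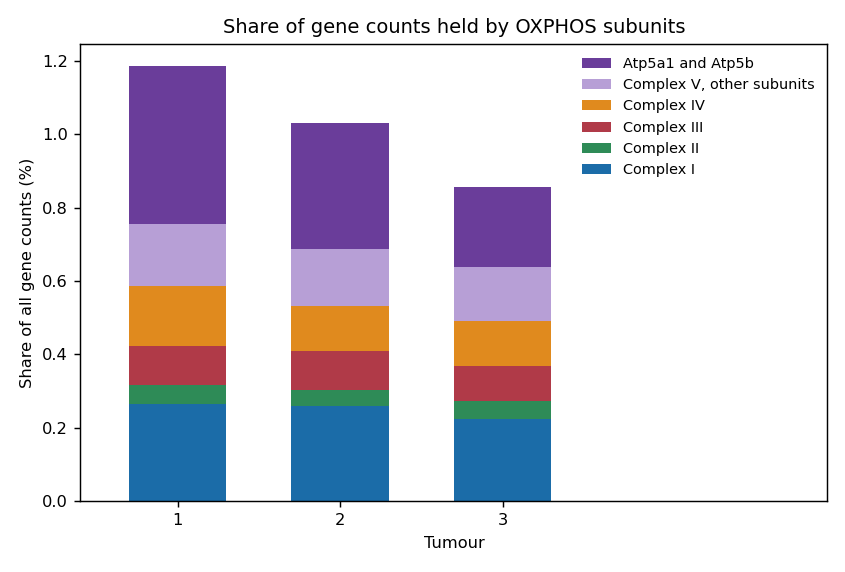
Share of all gene counts (percent) held by the subunits in each tumour, stacked by complex, with complex V divided into Atp5a1 plus Atp5b and the other subunits. The bars reach 1.19%, 1.03% and 0.857%, and the Atp5a1 plus Atp5b segment is the one that differs most between tumours.

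The remaining F1 subunits stood lower per union exon length, at means of 70.8 to 196 RPKM against 431 for Atp5b and 483 for Atp5a1 on that scale. Atp5d, the delta subunit of the central stalk, was at 537, 367 and 230 CPM and also highest in tumour 1. Atp5c1, the gamma subunit that turns inside the head, was at 252, 313 and 308 CPM, lowest in tumour 1. Atp5e, the epsilon subunit, was at 118, 118 and 138 CPM. The median of these 5 F1 subunits was 210 ± 60.9 RPKM per union exon length, and that of the other 12 complex V members was 29.4 ± 2.51 (SD, n = 3). Per principal transcript the medians were 432.5 ± 129 and 84.3 ± 5.91 RPKM, so the difference between the group medians exceeded the spread between tumours on both scales. The F1 genes shared 0 to 6.00% of their 50-base stretches with genes elsewhere. Atp5pb, Atp5md, Atp5h, Atp5g1, Atp5l and Atp5g2 of the other group shared 23.15 to 100%, so their levels are uncertain. Atp5g3, the highest of the other group per principal transcript at 303 RPKM, was above Atp5e (295.5) and Atp5c1 (249.6).

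The c subunit, which forms the rotating membrane ring, is encoded by Atp5g1, Atp5g2 and Atp5g3, whose mature proteins are the same. Atp5g3 was at 215, 195 and 240 CPM and held 93.0%, 91.9% and 95.3% of the counts of these genes. Atp5g1 was at 8.09, 14.7 and 9.36 CPM, highest in tumour 2. Atp5g2 was at 8.15, 2.51 and 2.54 CPM, highest in tumour 1. The principal transcripts of Atp5g1 and Atp5g2 shared 66.0% and 100% of their 50-base stretches with genes elsewhere, against 0% for Atp5g3, so their low counts are uncertain.

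Complex IV members divided into ubiquitous forms and tissue forms. Cox6b1 (GRCm38 chr7:30616861-30626151), a small subunit on the intermembrane side, was the highest at 369, 237 and 173 CPM (367 ± 141 RPKM), followed by Cox8a at 303 ± 46.1 RPKM and Cox6a1 at 267 ± 47.5 RPKM (SD, n = 3). Cox4i1 was at 226, 144 and 177 CPM, and its lung-type and hypoxia-related counterpart Cox4i2 had 0 counts in every tumour. The muscle-type Cox8b, the testis-type Cox8c and Cox7b2, a testis form known from human, also had 0 counts. A count of 0 allows up to 0.199, 0.184 and 0.169 CPM (3 counts) in tumours 1, 2 and 3. Cox7b was at 138, 115 and 108.5 CPM, Cox8a at 218, 162 and 183 CPM and Cox6c, which has no tissue-type counterpart among the members, at 104, 129 and 70.7 CPM.

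Low but detected tissue forms varied by tumour. The muscle-type Cox7a1 had 75, 15 and 24 counts (4.97, 0.920 and 1.35 CPM), and the ubiquitous Cox7a2 had 1317, 1322 and 1276. The muscle-type Cox6a2 had 10, 1 and 37 counts, beside 3367, 2972 and 2787 for Cox6a1, and was 1.31% of that pair in tumour 3 (95% Wilson interval 0.952 to 1.80). The testis-type Cox6b2 had 5, 2 and 8 counts, beside 5571, 3865 and 3068 for Cox6b1. Cox7a2l, a relative of Cox7a2 that acts in supercomplex assembly, was at 125, 67.4 and 83.9 CPM. Ndufa4 was at 163, 89.5 and 84.0 CPM, and its hypoxia-related relative Ndufa4l2 had 1 count in tumour 1 and none in the others. Cox7a1 was highest in tumour 1 and Cox6a2 in tumour 3. Cox6a2 overlaps Itgad, an integrin gene with 0, 5 and 882 counts, also highest in tumour 3, and its part in the Cox6a2 counts was not tested.

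**Figure D3:**
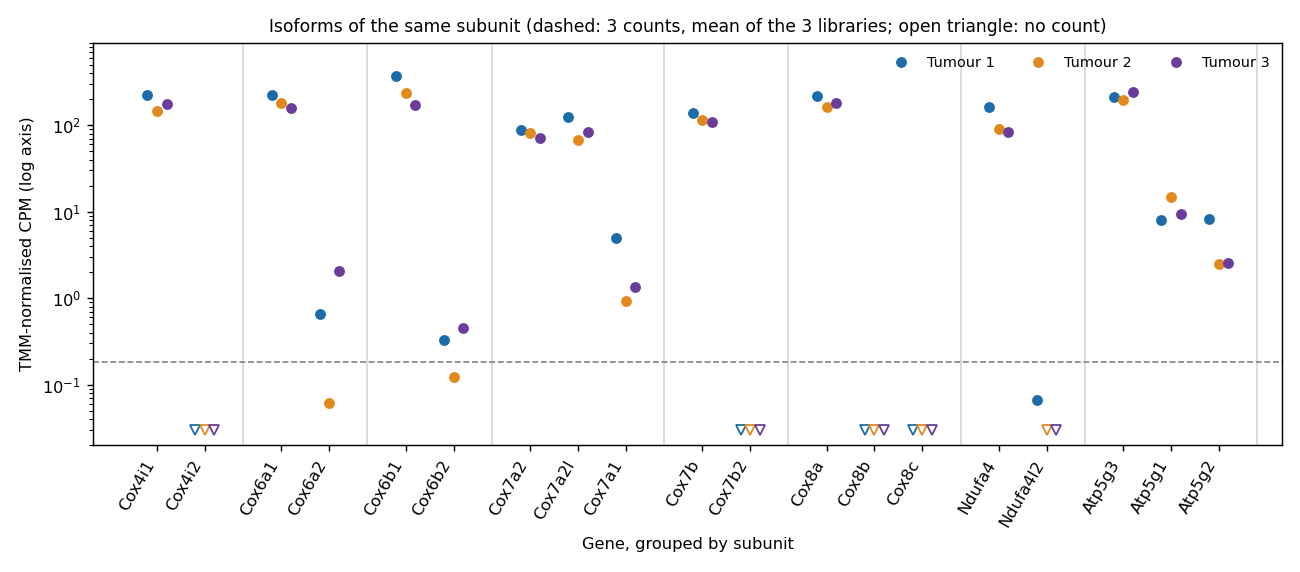
TMM-normalised CPM (log axis) of alternative genes for the same subunit in 3 tumours. The dashed line is 3 counts, as the mean of the 3 libraries, and open triangles mark no count. A single form per subunit stands at 84.0 CPM or more in every tumour, except in the Cox7a group. There Cox7a2 (71.9 to 87.3 CPM) and Cox7a2l (67.4 to 125 CPM) are both well above Cox7a1. Cox4i2, Cox7b2, Cox8b and Cox8c have no count in any tumour.

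In complex I, the core subunits that carry the flavin and iron-sulphur centres or bind quinone were compared with the accessory ones that surround them. The median of the 7 nuclear core subunits was 53.8 ± 14.6 RPKM, and that of the 31 accessory subunits was 36.2 ± 4.34 RPKM (SD, n = 3), a difference near the spread between tumours. Ndufs1, the largest iron-sulphur subunit, was at 60.8, 68.9 and 89.1 CPM. Ndufv1, which holds the flavin, was at 72.0, 65.3 and 92.0 CPM. Both were highest in tumour 3. Ndufv2, an iron-sulphur partner of Ndufv1, was at 133.5, 144 and 79.6 CPM and lowest in tumour 3. Ndufs7 was at 149, 113 and 75.4 CPM and also lowest there. Ndufs3 was at 47.1, 73.3 and 27.9 CPM, highest in tumour 2, and Ndufs8 was level at 83.0, 82.9 and 81.2 CPM. Core subunits of the same electron path were therefore ordered differently across the tumours.

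Among accessory subunits, the highest per union exon length was Ndufc2 at 154 ± 56.98 RPKM, followed by Ndufa2 at 127 ± 55.5 and Ndufb11 at 105 ± 7.31 (SD, n = 3). Per principal transcript, Ndufa3 (203 RPKM), Ndufa7 (199.5 RPKM) and Ndufa4 (184 RPKM) were above Ndufc2 (170 RPKM), with Ndufa2 at 127 and Ndufb11 at 105 RPKM. Ndufb4 (5.50, 5.76 and 3.95 CPM) was the lowest per length apart from Ndufa4l2. Ndufa10 was nearly level at 98.9, 103.5 and 99.9 CPM.

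Complex II, succinate dehydrogenase, links the citric acid cycle to the chain. Its flavoprotein gene Sdha was at 165, 149 and 208 CPM, highest in tumour 3. Its iron-sulphur gene Sdhb was at 155, 146.5 and 113.5 CPM, lowest in tumour 3. The ratio of Sdha to Sdhb CPM was 1.06, 1.02 and 1.84. The membrane anchors Sdhc and Sdhd were at 78.5, 52.4 and 70.9 CPM and at 139, 86.9 and 76.7 CPM, both highest in tumour 1.

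In complex III, Uqcr10 (GRCm38 chr11:4701973-4704342), a small subunit, had the highest level per union exon length at 177 ± 1.249 RPKM and the narrowest range of the 79 members that passed, with 103, 104 and 104 CPM. Uqcrh, the hinge protein, was at 95.6 ± 21.1 RPKM and Cyc1, cytochrome c1, at 82.4 ± 21.8 RPKM (SD, n = 3). The core proteins Uqcrc1 and Uqcrc2 were at 238.5, 179 and 222 CPM and at 193.5, 181 and 145 CPM. Uqcr11, another small subunit, was at 74.8, 60.1 and 23.3 CPM, the widest range in complex III. Uqcrb was the lowest at 18.4 ± 4.52 RPKM, with 43.2% of its 50-base stretches found in genes elsewhere.

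Across tumours, the members were most often highest in tumour 1 and lowest in tumour 3. Of the 79 members that passed the filter, 45 (56.96%) were highest in tumour 1, against 35.8% of all genes that passed. Likewise 44 (55.7%) were lowest in tumour 3, against 35.2%. Only 12 (15.2%) were lowest in tumour 1, against 34.3%, and 23 (29.1%) in tumour 2, against 30.6%. The others were highest in tumour 2 for 20 members (25.3%, against 30.8%) and in tumour 3 for 14 (17.7%, against 33.4%). The pattern of highest in tumour 1 with lowest in tumour 3 was shown by 30 members (38.0%) and by 2192 of 11273 genes (19.4%). The median deviation of the members from their own mean log2 CPM was 0.17, -0.0038 and -0.15 in tumours 1, 2 and 3, beside 0.016, 0.0043 and -0.0036 over all genes that passed. With total gene counts and no TMM factor the tumour 3 value was -0.087. Under other scalings of the libraries, 41 to 47 of the 79 members were highest in tumour 1 and 40 to 45 lowest in tumour 3. Genes at large moved with the scaling too. Of all 11273 genes, 3583 to 4317 were highest in tumour 1 and 3431 to 4034 lowest in tumour 3.

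This order was not the same in every complex. In complex IV, 11 of the 12 members that passed were highest in tumour 1, and Cox6c, highest in tumour 2, was the exception, under each of the scalings tried. In complex I, 17 of 37 were highest in tumour 1 and 24 of 37 lowest in tumour 3. The counts highest in tumour 1 were 3 of 4, 5 of 9 and 9 of 17 in complexes II, III and V. The summed level of the T cell markers was far higher in tumour 3 (583 CPM, against 4.90 and 27.0). Among them Cd4 was highest in tumour 2 (0.597, 5.82 and 0.902 CPM), and the other listed markers in tumour 3. The summed level of the B cell markers was lowest in tumour 1 (5891, 9565 and 7486 CPM). Tumour 3 was also the most deeply sequenced library. The part of these differences in the order of the subunit levels was not tested. In bulk RNA, fewer cells of a type and less RNA per cell cannot be told apart.

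**Figure D4:**
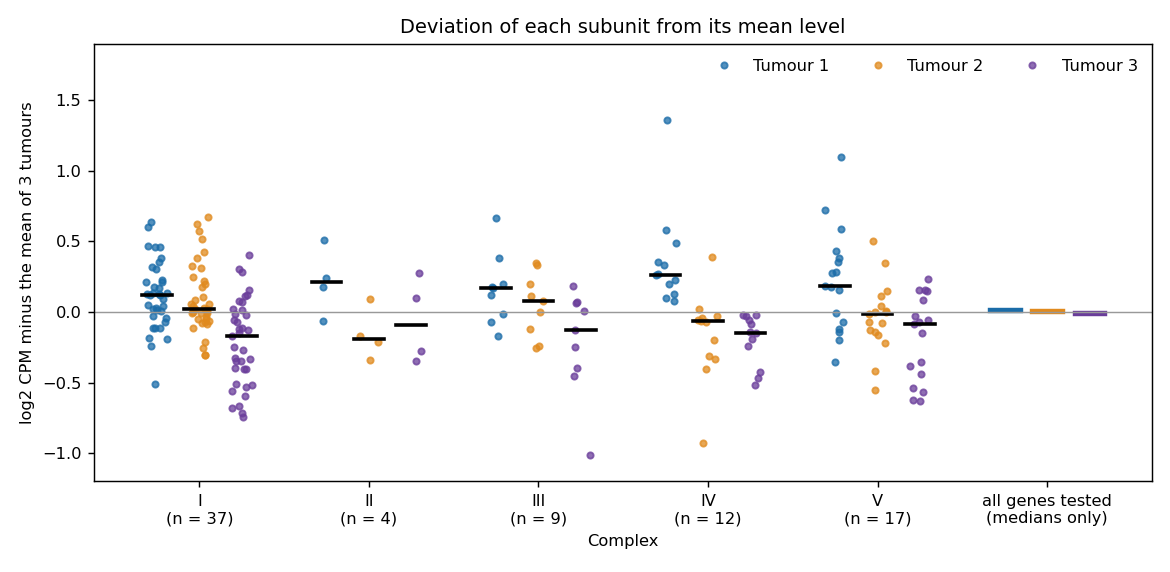
Log2 CPM of each member minus its mean over the 3 tumours, by complex, for the 79 members that passed the filter. Points are genes, black bars are medians per complex and tumour, and the coloured bars at the right are medians over all 11273 genes. The tumour 1 median is above 0 and the tumour 3 median below 0 in every complex, while the medians over all genes lie near 0.

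The spread between tumours was narrower than for genes at large. The median SD of log2 CPM was 0.28 over the 79 members and 0.39 over all genes that passed. A range of more than 1 (log2) between the highest and the lowest tumour was found for 11 of 79 members (13.9%), against 34.1% of all genes that passed. At a mean of 50 CPM or more it was 8 of 56 members (14.3%) against 24.6%. The 11 were Ndufc2, Ndufa2, Ndufb9, Ndufa7, Ndufs3, Uqcr11, Cox6b1, Cox7a1, Atp5a1, Atp5d and Atp5g2. Of these, 9 were lowest in tumour 3, and Cox7a1 and Atp5g2 were lowest in tumour 2. The lowest tumour was not counted over all genes with such a range, so this split cannot be set against genes at large. Between tumours 2 and 3 alone the count of members with a range over 1 was 4. It was 8 between tumours 1 and 3, and 2 between tumours 1 and 2. The share over all genes was not computed for these pairs, so the counts cannot be set against genes at large. A range over 2 tumours also tends to be narrower than a range over 3.

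Members of complex I in this group did not share their highest tumour. Ndufc2 was at 152, 128 and 68.4 CPM and Ndufa2 at 106, 69.2 and 42.7 CPM, both highest in tumour 1. Ndufa7 was at 111, 146.5 and 58.7 CPM and Ndufb9 at 55.4, 92.8 and 42.2 CPM, both highest in tumour 2. A further 5 members (Ndufa6, Ndufs7, Ndufa12, Atp5b and Ndufa4) lay just under the limit, with ranges of 0.95 to 0.99.

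Several members had low counts together with sequence shared with other genes. Reads were 50 nt long, so each principal transcript was cut into 50-base stretches and matched exactly to all other annotated transcripts. More than 20% of the stretches occurred in another gene for 21 of 79 members (26.6%), against 12.5% of protein coding genes that passed. Counting genes at another locus only, it was 14 of 79 members (17.7%), against 5.6% of protein coding genes that passed. These 14 had a median mean level of 15.4 CPM (35.2 RPKM per principal transcript), beside 86.8 CPM (117 RPKM) for the other members. Highest were Atp5g2 (100%), Atp5l (68.5%), Atp5g1 (66.0%), Cox7c (53.0%), Atp5h (50.5%), Uqcrb (43.2%), Ndufs5 (41.2%), Atp5md (40.6%), Ndufb4 (37.0%) and Ndufs3 (35.8%). Cox5b-ps (61.9%) was at 1 to 3 counts. How the authors treated reads that match several places is not given in the sources used here, and its part in these low counts was not tested.

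**Figure D5:**
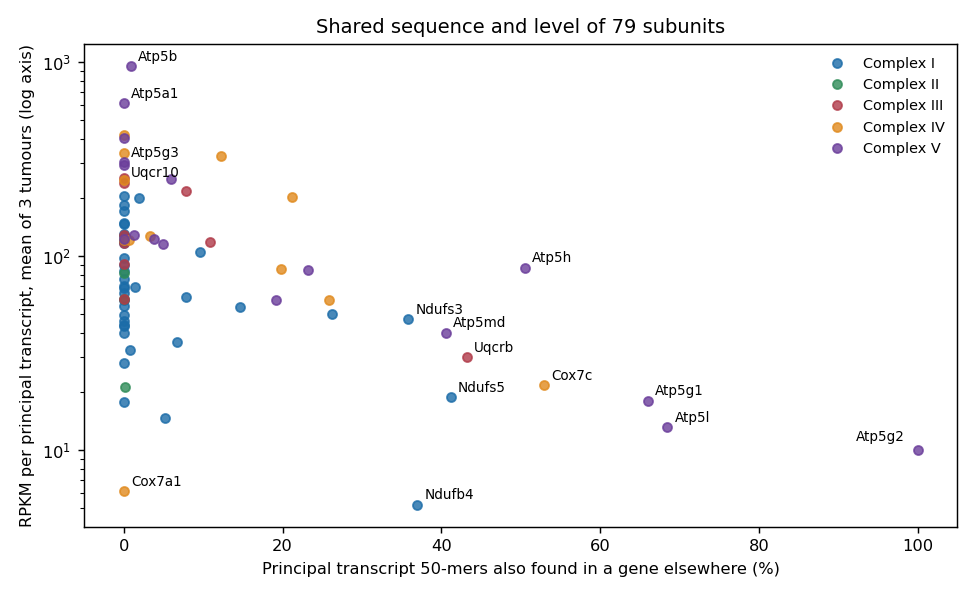
Mean level per principal transcript (RPKM, log axis) of the 79 members that passed the filter against the percent of 50-base stretches found in a gene elsewhere, coloured by complex. Members over 40% lie at 9.98 to 87.0 RPKM, whereas those with no shared stretch span 6.14 to 613 RPKM, and Atp5b at 0.857% is the highest.

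Cox7c and Uqcr10 are shown as an example of a shared and an unshared sequence, picked after their values were seen. Both encode short subunits of a single membrane-spanning type. Their coding sequences (GENCODE M21, without the stop codon) are printed with capitals for bases inside a 50-base stretch that also occurs in a transcript of another gene.
Cox7c: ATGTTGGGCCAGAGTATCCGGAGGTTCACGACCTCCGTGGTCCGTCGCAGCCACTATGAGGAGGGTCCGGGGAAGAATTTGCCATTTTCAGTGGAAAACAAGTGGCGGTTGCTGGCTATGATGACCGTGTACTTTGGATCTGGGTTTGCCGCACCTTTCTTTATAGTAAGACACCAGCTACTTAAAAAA
Uqcr10: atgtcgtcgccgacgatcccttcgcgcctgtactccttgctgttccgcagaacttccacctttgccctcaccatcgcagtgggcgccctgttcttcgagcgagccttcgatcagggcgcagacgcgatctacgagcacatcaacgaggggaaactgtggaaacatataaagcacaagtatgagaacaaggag
All 189 coding bases of Cox7c were also found in other genes (Gm10012, Gm12338 and Gm20091), and none of the 192 of Uqcr10. Shared sequence and a low level did not always occur together: Atp5h (50.5%) was at 49.1, 53.7 and 60.4 CPM and Cox5b (25.9%) at 54.6, 49.6 and 49.2 CPM. Cox7c was at 13.9, 11.03 and 10.1 CPM, and Uqcr10 at 103, 104 and 104 CPM. Atp5l, the g subunit of complex V, had all 309 coding bases shared with 14 genes and was at 7.95, 5.21 and 8.23 CPM.

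Promoter sequences (RefSeq, GRCm38.p6, 250 bases before to 50 after the start of the gene) were matched for 68 of the 87 members, giving 73 promoters. They were searched on both strands for motifs of factors with known roles in respiratory gene transcription. The NRF1 motif, a palindrome of GCGC, AT and GCGC in a row, was in 5 of 73 (6.85%), against 0.971% of all 32851 promoters and 1.33% of those of protein coding genes. With the A of its centre free to be any base (both strands), which includes every match of the exact motif, it was in 18 of 73 (24.7%), against 4.6% and 6.38%. The YY1 motif GATGGCGGC was in 6 (8.22%, against 1.03% and 1.41%), the ETS motif CCGGAAGT, bound by the Gabpa family, in 5 (6.85%, against 3.89% and 5.15%), and the ERRA motif TCAAGGTCA in 2 (2.74%, against 0.423% and 0.334%). The looser NRF1 matches lay in 17 genes and the YY1 matches in 5. Ndufa5 and Ndufa7 each had 2 overlapping windows that held the same site, which was counted in both windows. Median GC content was 57.3% in the members' promoters and 56.3% in those of protein coding genes. A match describes letters only and is not evidence of binding.

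The windows below carry different matches, in capitals, or none. Cox6a1 and Uqcrc1 hold more than 1 NRF1-type match, Atp5g3 an NRF1-type and an ERRA match, Ndufa7 a YY1 match and Uqcr11 an ETS match. Atp5b, the member of highest mean CPM, is shown as a window without any of these motifs.
Cox6a1 (chr5:115348909-115349208, minus strand): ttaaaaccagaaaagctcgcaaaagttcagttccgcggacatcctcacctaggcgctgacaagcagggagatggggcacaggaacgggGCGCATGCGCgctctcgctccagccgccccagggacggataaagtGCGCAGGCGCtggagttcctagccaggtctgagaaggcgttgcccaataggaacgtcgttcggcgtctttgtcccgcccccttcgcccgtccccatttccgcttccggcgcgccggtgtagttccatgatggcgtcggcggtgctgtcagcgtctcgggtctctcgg
Uqcrc1 (chr9:108936398-108936697, plus strand): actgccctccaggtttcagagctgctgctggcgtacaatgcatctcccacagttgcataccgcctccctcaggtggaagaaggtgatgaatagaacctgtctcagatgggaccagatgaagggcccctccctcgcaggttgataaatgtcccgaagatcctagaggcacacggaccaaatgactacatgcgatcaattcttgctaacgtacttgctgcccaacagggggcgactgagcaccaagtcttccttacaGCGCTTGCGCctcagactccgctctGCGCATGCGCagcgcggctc
Atp5g3 (chr2:73911277-73911576, minus strand): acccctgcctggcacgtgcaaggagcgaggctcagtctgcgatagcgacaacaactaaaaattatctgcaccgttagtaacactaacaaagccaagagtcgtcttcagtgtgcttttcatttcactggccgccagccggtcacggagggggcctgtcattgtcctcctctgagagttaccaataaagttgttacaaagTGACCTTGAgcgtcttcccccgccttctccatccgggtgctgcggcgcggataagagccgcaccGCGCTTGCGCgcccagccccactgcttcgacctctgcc
Ndufa7 (chr17:33824322-33824621, plus strand): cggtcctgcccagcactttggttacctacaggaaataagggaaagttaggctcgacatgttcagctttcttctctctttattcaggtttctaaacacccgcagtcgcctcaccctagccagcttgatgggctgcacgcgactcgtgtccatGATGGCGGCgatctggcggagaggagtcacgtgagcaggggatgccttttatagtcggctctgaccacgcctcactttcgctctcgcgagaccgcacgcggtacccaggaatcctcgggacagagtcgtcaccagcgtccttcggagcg
Uqcr11 (chr10:80406772-80407071, minus strand): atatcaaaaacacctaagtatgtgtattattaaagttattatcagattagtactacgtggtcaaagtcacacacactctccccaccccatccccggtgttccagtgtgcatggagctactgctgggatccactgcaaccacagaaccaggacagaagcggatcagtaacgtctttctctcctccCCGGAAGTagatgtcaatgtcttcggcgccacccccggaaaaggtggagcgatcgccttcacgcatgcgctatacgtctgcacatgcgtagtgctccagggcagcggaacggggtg
Atp5b (chr10:128083057-128083356, plus strand): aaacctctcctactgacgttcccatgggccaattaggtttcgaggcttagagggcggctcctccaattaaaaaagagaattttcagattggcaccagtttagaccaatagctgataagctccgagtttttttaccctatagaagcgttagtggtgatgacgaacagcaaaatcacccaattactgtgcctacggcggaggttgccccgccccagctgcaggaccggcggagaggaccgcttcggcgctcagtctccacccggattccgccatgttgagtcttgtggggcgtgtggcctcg
Of the 17 passing genes with the looser NRF1 motif, 7 were highest in tumour 1, 6 in tumour 2 and 4 in tumour 3, and 9 were lowest in tumour 3. Of the 48 passing matched genes without it, 30 were highest in tumour 1 and 29 lowest in tumour 3. Over all genes that passed, 35.8% were highest in tumour 1 and 35.2% lowest in tumour 3. The difference between members with and without the motif was not tested. Their median mean level was 54.4 CPM with the motif and 82.3 CPM without.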

How the data were processed

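Poly(A)-selected RNA of 3 libraries was sequenced as single 50 nt reads, per the labels. The authors deposited raw counts per gene, for which the submitters' processing notes name FastQC, STAR 2.5.2b, featureCounts 1.6.0 and mm10. The annotation release, the strandedness and the handling of multi-mapping reads were not stated. Reads of genes that overlap, on the same or the opposite strand, may therefore be mixed. Of 37646 gene identifiers, 37536 matched GENCODE M21, which gave types, positions, lengths and transcripts.

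Genes were filtered with filterByExpr, and CPM and RPKM were scaled by TMM (edgeR 4.0.16, R 4.3.3), with factors of 0.969, 0.990 and 1.04. Log2 values used a prior count of 2. RPKM took union exon lengths, or the principal transcript (lowest APPRIS rank, then support level, then shortest). DESeq2 1.42.0 size factors were an alternative. Tables were handled in Python 3.11.15 with pandas 2.3.3 and NumPy 2.4.6, intervals in SciPy 1.17.1, and plots in matplotlib 3.10.9. The common biological coefficient of variation was 0.445, and the exact 95% Poisson interval around 100 counts is 81.4 to 122.

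The members, the gene lists and the rule for named genes were chosen with earlier results of these data known. Named were, per complex, the 3 members of highest and the 1 of lowest mean RPKM, those under 1 CPM in any tumour, those with a range over 1 (log2) at a mean of at least 1 CPM, the complex I core, the Sdh genes and the alternative isoforms. Others (Atp5c1, Atp5e, Cox7c, Ndufa10, Ndufb4, Uqcrc1 and Uqcrc2, and those named for shared sequence) were chosen after their values were seen. Not every gene that the rule names is reported.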

Additional observations from a re-analysis of the deposited data

How the results depend on the processing

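Alternatives covered the scaling of the libraries, the denominator, the low-count filter, the prior count, the length, the members and leaving out each tumour; those by principal transcript and by shared sequence were chosen after seeing the data. Of 100 recomputed values, 84 kept within the limits set for them and 16 moved. The count of members with a range over 1 was 2 to 8 with 1 tumour left out, against 11, but fewer tumours alone tend to narrow the range. Median log2 RPKM per complex depended on length: with the longest transcript it was 5.59 in complex I, 6.10 in II, 6.46 in III and 6.09 in V, and with the principal transcript 5.95, 6.10, 6.88, 5.89 and 6.84 in complexes I to V, against 5.21, 5.66, 6.09, 4.70 and 5.26. Without members that share over 20% of stretches elsewhere it was 5.38 in complex I, 5.26 in IV and 6.39 in V. Complex IV without tissue isoforms was at 6.16. With mitochondrial and immunoglobulin genes taken out of the denominator, every complex was higher, at 5.30, 5.76, 6.18, 4.80 and 5.36 in complexes I to V. Of these, only the complex II value went beyond its limit. No paired analysis was possible because the labels give 1 group. At this depth, levels under 0.199, 0.184 and 0.169 CPM in tumours 1, 2 and 3 cannot be told from 0.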

Other observations

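The mitochondrially encoded subunits complete complexes I, III, IV and V, and 7 of the 13 passed the filter. Of these, 6 were highest in tumour 1, and mt-Co1, a catalytic subunit of complex IV, was highest in tumour 2 at 12640, 15290 and 12140 CPM. mt-Nd1 of complex I was at 11680, 7250 and 6688 CPM and mt-Cytb of complex III at 10090, 9319 and 6825 CPM. The 13 genes held 5.13%, 4.53% and 3.91% of gene counts, nearly all of it from the 7 that passed. Of the others, mt-Co2, mt-Co3, mt-Atp6 and mt-Nd4l had 0 or 1 counts per tumour. Of their 50-base stretches, 98.8 to 100% were also in other genes, but mt-Atp8 had 0 counts with no shared stretch. mt-Nd3 had 5, 8 and 4 counts, with 98.0% shared. mt-Co1 and mt-Nd4 passed the filter with 51.1% and 62.2% shared, so their levels are uncertain too.

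Assembly factors, which build the complexes without being part of them, were counted in the same way, and 35.8% of all genes that passed were highest in tumour 1 and 30.8% in tumour 2. Of 14 complex I factors, 6 were highest in tumour 1 and 7 in tumour 2. All 4 genes listed for complex V were highest in tumour 2. These were the factors Atpaf1, Atpaf2 and Tmem70, and Atpif1, which encodes an inhibitor of the ATP synthase and not an assembly factor. Among the 16 complex IV factors that passed, 4 were highest in tumour 1 and 8 in tumour 2. Surf1, a complex IV factor, was at 17.9, 50.1 and 55.1 CPM, lowest in tumour 1, and Sdhaf1, a complex II factor, was at 52.0, 13.7 and 11.95 CPM, highest in tumour 1, with 69.0% of its stretches in another gene. Of the transcriptional regulators, the coactivator Ppargc1a had 0, 2 and 1 counts, its relative Ppargc1b was at 34.8, 16.8 and 12.96 CPM, and Nrf1 was at 71.3, 54.4 and 62.4 CPM. Myc was at 711.5, 995.5 and 646 CPM. Cycs, which encodes the electron carrier cytochrome c, was at 3.31, 3.56 and 2.71 CPM, with 28.5% of its stretches in another gene.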
